A study of Mus musculus with 12 samples.

Results

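The genes described here are the mouse collagen and laminin genes, 55 of the 23502 entries in the testis count table and 55 of the 51826 entries in the sperm count table. They were chosen by name, though with earlier results of these data known. Every entry whose symbol is Col, a number, the letter a and a number, or Lama, Lamb or Lamc with a number, was taken. This gave 44 collagen and 11 laminin genes in each table. By the known place of their proteins, 19 were taken as basement membrane members (the 6 collagen IV chains, the 11 laminin chains and the multiplexins Col15a1 and Col18a1), 26 as interstitial members (11 fibrillar, 6 collagen VI and 9 fibril-associated genes) and 10 as neither (transmembrane and other collagens).

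The study asked how a pair of related nuclear proteins, Xap5 and Xap5l, act in the male germ line, and compared mutant with wild-type (WT) mice by RNA-seq. Testes were taken whole at P16 from 3 WT and 3 Xap5 cKO libraries, and sperm from the cauda epididymis at P56 from 3 WT and 3 Xap5l KO libraries. Xap5 cKO mice carried a floxed Xap5 allele, on the X chromosome, and a GFP-Cre fusion knocked into Stra8, which is active in germ cells, so the allele is kept in the somatic cells of the testis. Xap5l KO mice carried a CRISPR-Cas9 deletion in every cell. The floxed Xap5 and Xap5l KO lines were made on a C57BL/6J background, and that of the Stra8 knockin line is not given in the sources used here. The labels call both control groups WT, while the study's text also describes controls of Xap5 cKO males as Xap5 fl/Y, with the floxed allele, so the WT testis libraries may carry it. Nothing in the sources used here says whether each library came from its own animal. The p-values set the difference between genotypes against the spread between libraries, which may thus be partly technical.

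Collagens are proteins of 3 chains wound into a triple helix, and laminins are cross-shaped trimers of an alpha, a beta and a gamma chain. In the testis a basement membrane of laminin and collagen IV networks lies between the seminiferous tubule and the peritubular myoid cells, and is laid down by those cells and by Sertoli cells. The tissue between the tubules holds fibrils of collagens I, III and V with a fine network of collagen VI.

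Testis libraries held between 32251198 and 36759054 counts and sperm libraries between 38881197 and 52308452. The 55 genes took between 0.411% and 0.5% of all counts in WT testes, between 0.629% and 0.755% in Xap5 cKO testes, and between 0.0281% and 0.04% in the sperm libraries. Fam50a, the table's name for Xap5, had 819, 811 and 988 counts in WT against 673, 616 and 651 in Xap5 cKO testes (log2 fold change -0.33 ± 0.13 (SE), adjusted p = 0.0495). Fam50b, the name for Xap5l, had 574, 440 and 419 counts in WT against 18, 23 and 8 in Xap5l KO sperm. The third WT testis library stood apart from the other two: its expression correlated with the Xap5 cKO libraries at 0.952 to 0.956, against 0.924 to 0.93 for WT replicates 1 and 2, and it had the highest share of counts on collagen and laminin genes of the WT libraries. Counts of members are therefore given with and without it. Levels below are counts scaled to library size by TMM (CPM), given library by library in the order of the replicate numbers. A gene passed the test at an adjusted p-value under 0.05 in the quasi-likelihood test of edgeR, adjusted by Benjamini-Hochberg over all tested genes, and was called up- or downregulated beyond 2-fold when its fold change was also above 2.

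Promoters of members on which the testis results turn were read first. RefSeq windows of GRCm38.p6, from 250 bases before to 50 after the start, were at hand for 40 of the 55 genes, 44 windows in all. Of the windows below, that of Col4a2 also holds the start of Col4a1, that of Lamb1 belongs to a laminin chain that rose, that of Lama5 to the laminin chain that fell, and those of Col1a2 and Col3a1 to the interstitial fibrils. They are printed 5′ to 3′ on the strand of the gene, with capitals for GC boxes (GGGCGG, or CCGCCC on the other strand) and CCAAT boxes (CCAAT, or ATTGG).
Col4a2 (chr8:11312555-11312854, plus strand): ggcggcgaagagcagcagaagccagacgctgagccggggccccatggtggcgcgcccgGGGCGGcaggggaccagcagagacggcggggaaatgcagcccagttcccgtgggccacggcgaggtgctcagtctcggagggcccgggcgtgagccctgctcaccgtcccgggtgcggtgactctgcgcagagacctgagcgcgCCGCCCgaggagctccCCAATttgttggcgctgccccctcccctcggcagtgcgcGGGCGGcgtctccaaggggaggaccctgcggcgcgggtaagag
Lamb1 (chr12:31265043-31265342, plus strand): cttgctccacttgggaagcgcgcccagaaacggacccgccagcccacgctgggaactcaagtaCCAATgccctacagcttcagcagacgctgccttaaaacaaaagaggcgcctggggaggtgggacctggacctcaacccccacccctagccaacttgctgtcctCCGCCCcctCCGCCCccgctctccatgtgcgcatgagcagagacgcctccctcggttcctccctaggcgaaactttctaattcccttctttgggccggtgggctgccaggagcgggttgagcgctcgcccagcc
Lama5 (chr2:180225810-180226109, minus strand): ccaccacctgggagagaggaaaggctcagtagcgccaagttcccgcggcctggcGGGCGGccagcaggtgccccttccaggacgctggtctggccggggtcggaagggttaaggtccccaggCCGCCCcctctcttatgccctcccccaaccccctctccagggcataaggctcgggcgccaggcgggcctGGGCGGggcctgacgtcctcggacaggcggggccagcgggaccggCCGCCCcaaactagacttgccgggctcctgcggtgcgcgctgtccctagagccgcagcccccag
Col1a2 (chr6:4505368-4505667, plus strand): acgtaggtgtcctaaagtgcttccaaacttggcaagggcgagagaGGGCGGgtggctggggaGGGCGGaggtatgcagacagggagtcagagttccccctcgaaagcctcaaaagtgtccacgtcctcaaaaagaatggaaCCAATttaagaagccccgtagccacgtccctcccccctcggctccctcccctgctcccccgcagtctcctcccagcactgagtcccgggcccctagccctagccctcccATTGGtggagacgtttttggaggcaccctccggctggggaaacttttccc
Col3a1 (chr1:45311288-45311587, plus strand): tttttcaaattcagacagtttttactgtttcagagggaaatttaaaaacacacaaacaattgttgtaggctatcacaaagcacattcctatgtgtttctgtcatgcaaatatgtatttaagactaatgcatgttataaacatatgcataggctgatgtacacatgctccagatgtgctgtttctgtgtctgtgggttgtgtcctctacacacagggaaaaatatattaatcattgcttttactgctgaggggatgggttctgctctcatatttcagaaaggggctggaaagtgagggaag

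The printed windows differed widely in base composition, from 37.7% G and C at Col3a1 to 73.7% at Col4a2. A GC box on either strand was present in 26 of the 44 member windows (59.1%), against 35.7% of all 32851 windows, in 57.1% of the 14 basement membrane windows and in 61.9% of the 21 interstitial windows. The median G and C content was 59.5% over the member windows and 52.7% over all windows. A CCAAT box was present in 31.8% of member windows and in 37.4% of all windows, and a TATA box (TATAAA, either strand) in 11.4% and 13.6%. A longer motif named in the study's text, GGGCGGGG, which holds the GC box, was searched on either strand as well. It was present in 20.5% of member windows and in 17.6% of all windows, and of the printed windows in that of Lama5 alone. Lama5, which moved against most laminins, had 4 GC boxes and no CCAAT box in its window. Of the laminins that rose, Lamb1 had 2 GC boxes and 1 CCAAT box, Lama2 had 1 GC box and no CCAAT box, and Lamb2 had neither. A relation of these boxes to the direction of change was not tested. These matches describe letters in the windows and say nothing of binding. The 6 collagen IV genes lie as 3 pairs on opposite strands: in the GENCODE annotation of GRCm38 the starts of Col4a1 and Col4a2 on chromosome 8 are 21 bp apart, those of Col4a4 and Col4a3 on chromosome 1 are 72 bp apart, and those of Col4a6 and Col4a5 on the X chromosome are 1309 bp apart.

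In P16 testes, the comparison of Xap5 cKO with WT showed higher RNA for most collagen and laminin genes, by moderate amounts. Of the 53 members tested, 31 rose, 5 fell and 17 did not pass, where 25.0% of the 16821 genes tested rose and 28.1% fell. The median log2 fold change was 0.60 over the members and -0.0083 over all genes. Few changes were large: 5 members rose beyond 2-fold (Lama3, Col6a6, Col9a3, Col26a1 and Col23a1), with 4.15% of all genes, and Col2a1 alone fell beyond 2-fold, with 10.9%. The libraries of both groups did not overlap for 32 members that were higher and 6 that were lower, against 29.9% and 32.4% of all genes. Without the third WT library, 35 members rose and 5 fell, and 9 rose beyond 2-fold; Col6a3, Col24a1, Col9a2 and Col17a1 then passed. Col10a1 and Col19a1 were too low to be tested, at no more than 0.528 CPM in any testis library.

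**Figure D1:**
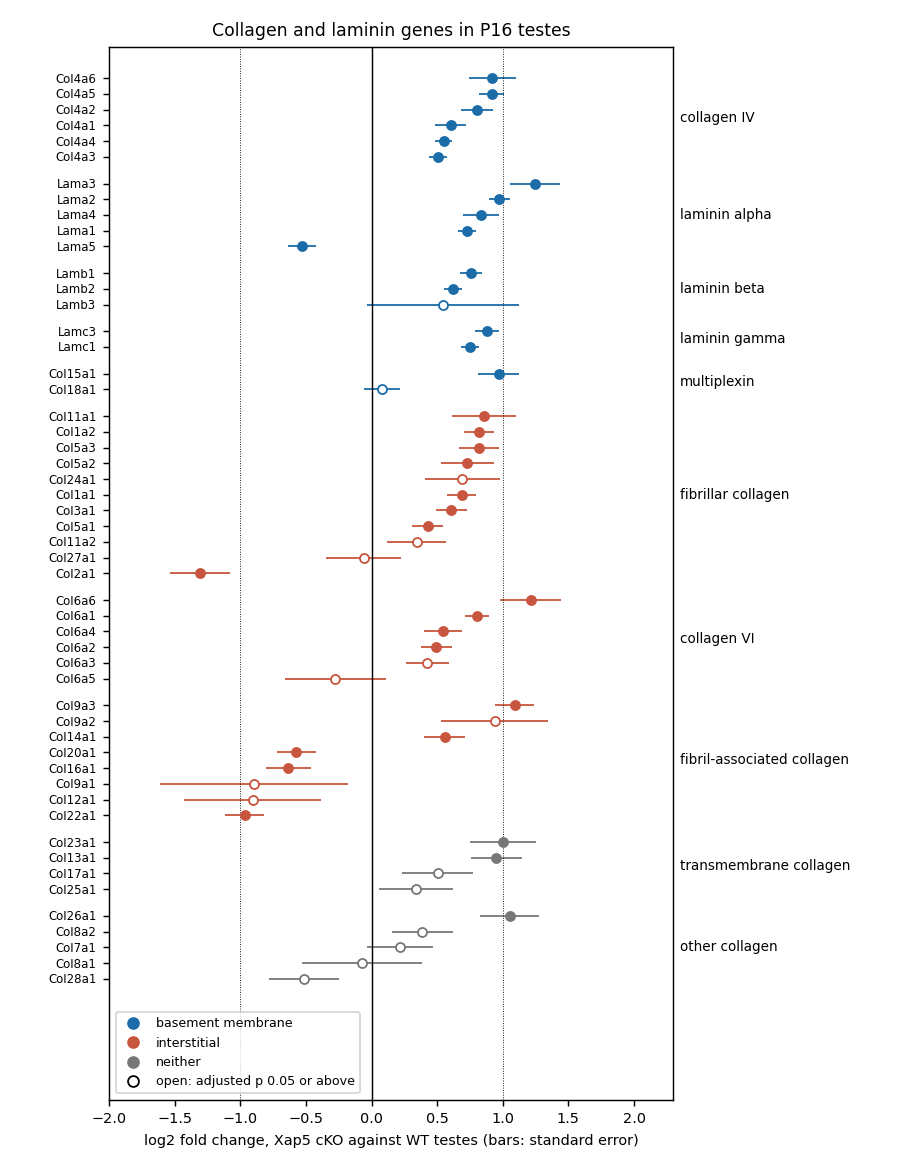
Log2 fold change of Xap5 cKO against WT testes at P16 for 52 of the 53 tested members, grouped by class, with bars for the standard error and 3 libraries per group. Most filled points, which passed the test, lie between 0.4 and 1.3, and Lama5, Col2a1, Col16a1, Col20a1 and Col22a1 are the filled points to the left of 0.

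Genes rose on both sides of the matrix. Among the 19 basement membrane members 15 rose and Lama5 fell, with a median log2 fold change of 0.75. Among the 25 interstitial members tested, 13 rose and 4 fell, with a median of 0.54. Of the 9 tested members that belong to neither group, 3 rose and the other 6 did not pass, with a median of 0.38. The summed level of the basement membrane members went from 2920 ± 177 CPM (SD, n = 3) to 4498 ± 431, and that of the interstitial members from 1550 ± 215 to 2415 ± 207. Per kilobase of exon, the ratio of basement membrane to interstitial RNA was 2.05 ± 0.176 in WT and 2.01 ± 0.0677 in Xap5 cKO testes, with overlapping libraries. The balance of the summed levels thus did not move beyond its spread, and the difference between both sides in the counts of genes was not tested. Without the third WT library the counts that rose were 15 basement membrane and 16 interstitial genes.

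Collagen IV, the network-forming collagen of basement membranes, rose as a class: all 6 genes passed, with log2 fold changes from 0.51 to 0.92. Col4a1, which with Col4a2 forms the common heterotrimer, was at 400.4, 352.5 and 428 CPM in WT against 674, 633 and 484.5 in Xap5 cKO testes (log2 fold change 0.60 ± 0.12 (SE), adjusted p = 0.00248). Col4a2 was at 277, 251 and 289.6 CPM in WT against 554, 491 and 384 in Xap5 cKO testes (0.81 ± 0.12, adjusted p = 0.000507). Every Xap5 cKO library lay above every WT library for both genes, and the third Xap5 cKO library was the lowest of its group. Per kilobase, the ratio of Col4a1 to Col4a2 was 1.28, 1.25 and 1.31 in WT against 1.08, 1.14 and 1.12 in Xap5 cKO testes, so the partners did not rise in proportion. Their first exons overlap on opposite strands, and the sources used here do not give the use of strand in counting.

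Col4a3 and Col4a4, whose chains join with that of Col4a5 in the collagen IV of kidney and testis, rose least among the 6. Col4a3 was at 169, 154 and 166 CPM in WT against 245, 236.5 and 212 in Xap5 cKO testes (0.51 ± 0.071, adjusted p = 0.000338). Col4a4 was at 281, 266 and 282 CPM in WT against 431, 411.5 and 371 in Xap5 cKO testes (0.55 ± 0.066, adjusted p = 0.000147). Col4a5 was at 55.5, 53.6 and 60.1 CPM in WT against 117, 108 and 93.8 in Xap5 cKO testes (0.92 ± 0.095, adjusted p = 7.01e-05). Col4a6, its neighbour on the X chromosome, was the scarcest of the class at 6.19, 5.57 and 6.92 CPM in WT against 12.6, 10.6 and 12.2 in Xap5 cKO testes (0.92 ± 0.18, adjusted p = 0.00204). Neither gene overlapped between groups. The testis table also lists Col4a6 under a second, numbered entry of 247 to 472 counts per library, which was left apart here. The level of Col4a3 and Col4a4 relative to Col4a1 and Col4a2, per kilobase, was 0.453 ± 0.0241 in WT and 0.408 ± 0.0435 in Xap5 cKO testes, with overlapping libraries.

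Of the 5 laminin alpha chains, which carry the sites for cell receptors, 4 rose and 1 fell. Lama2, the alpha chain best known from muscle, was at 153, 146 and 176 CPM in WT against 319.7, 293.5 and 320.4 in Xap5 cKO testes, a 1.96-fold rise (0.97 ± 0.079, adjusted p = 2.46e-05). Lama1, an alpha chain of early embryonic and some epithelial basement membranes, was at 106, 114 and 118 CPM in WT against 199.8, 177 and 182 in Xap5 cKO testes (0.73 ± 0.070, adjusted p = 5.12e-05). Neither chain overlapped between groups. Lama3, an alpha chain of epithelia, had the largest fold among the members that rose, from 8.31, 8.83 and 13 to 22.1, 22.8 and 26.4 CPM (1.24 ± 0.19, adjusted p = 0.000569). Lama4, known from vessel walls, was at 17.1, 15 and 18.2 CPM in WT against 28.8, 26.8 and 34.1 in Xap5 cKO testes (0.83 ± 0.14, adjusted p = 0.00078).

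Lama5, the alpha chain of laminin-511 and laminin-521, moved the other way. It was at 47.2, 51.7 and 51.6 CPM in WT against 37.1, 37 and 29.9 in Xap5 cKO testes, 0.691 times the WT level (-0.53 ± 0.11, adjusted p = 0.00269), and every Xap5 cKO library was below every WT library. It passed in each of the 6 fits that left out 1 library, with log2 fold changes from -0.58 to -0.44. Of the summed alpha chain level per kilobase, Lama5 made up 15.6%, 16.6% and 15% in WT against 6.79%, 7.4% and 5.68% in Xap5 cKO testes. Lama2 made up 35.2%, 32.8% and 35.7% in WT against 40.8%, 40.9% and 42.3% in Xap5 cKO testes. The share of Lama1 was 41.4% ± 1.39 in WT and 41.8% ± 1.25 in Xap5 cKO testes, with overlapping libraries. The shares of a whole are tied to each other, so a lower share of Lama5 comes with higher shares elsewhere. The annotated exons merged for these lengths include some that the testis may not use.

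**Figure D2:**
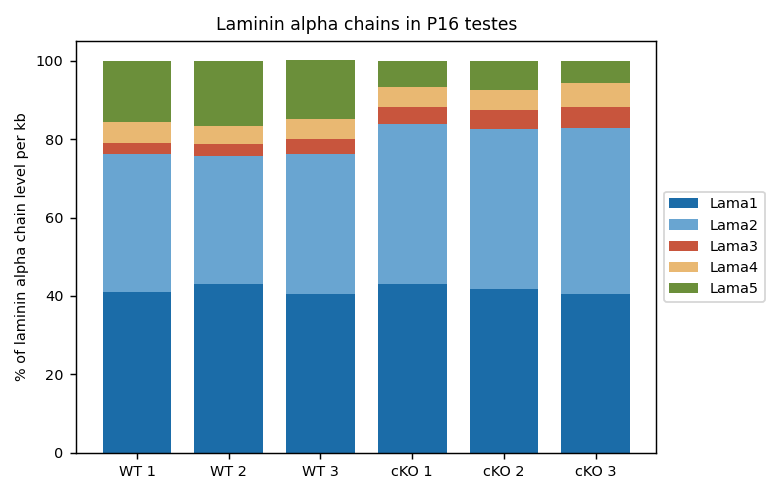
Share of each laminin alpha chain, in percent of the summed level per kilobase, in each of the 3 WT and 3 Xap5 cKO testis libraries, as stacked bars that start at 0. The Lama5 segment at the top is 15% to 16.6% in WT and 5.68% to 7.4% in Xap5 cKO libraries.

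The beta and gamma chains that pair with Lama1 and Lama2 rose with them. Lamb1 was at 161, 141.5 and 172 CPM in WT against 277, 247 and 278.5 in Xap5 cKO testes (0.76 ± 0.083, adjusted p = 9.47e-05). Lamb2, the beta chain of mature basement membranes, was at 278, 298 and 279.6 CPM in WT against 474, 434 and 407 in Xap5 cKO testes (0.62 ± 0.067, adjusted p = 8.59e-05). Lamc1, the gamma chain shared by most laminins, was at 124.5, 123 and 139 CPM in WT against 230.2, 205 and 216 in Xap5 cKO testes (0.75 ± 0.071, adjusted p = 4.62e-05). None of these chains overlapped between groups. Lamc3, a gamma chain with a narrower range of tissues, was at 300.2, 248 and 317 CPM in WT against 561, 529.8 and 499 in Xap5 cKO testes (0.88 ± 0.091, adjusted p = 7.00e-05). Per kilobase Lamc3 made up 74.8% ± 1.8 of the gamma chain level in WT and 76.6% ± 0.996 in Xap5 cKO testes, and Lamb2 made up 74.5% ± 2.51 and 72.7% ± 2.01 of the beta chain level, both with overlapping libraries. Lamb3, a beta chain of epithelia, stayed below 1 CPM in every library and did not pass (0.55 ± 0.58, adjusted p = 0.457).

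The 2 multiplexins, collagens with heparan or chondroitin sulfate chains in and below basement membranes, were unlike each other. Col15a1 was at 61, 51.3 and 80.4 CPM in WT against 140.5, 126 and 110.4 in Xap5 cKO testes (0.97 ± 0.16, adjusted p = 0.00075). Col18a1, the source of endostatin, was at 423, 489 and 517 CPM in WT against 588, 529.6 and 392 in Xap5 cKO testes (0.079 ± 0.14, adjusted p = 0.653), and its groups overlapped. Col18a1 had the highest level per kilobase of all members in WT testes, 67.9 ± 6.9 CPM per kb (SD, n = 3). Next in that order came Col4a1 at 52.7 ± 5.1, Lamc3 at 47.4 ± 5.86, Lamb2 at 46.9 ± 1.84, Col4a2 at 41.2 ± 2.97 and Col3a1 at 39.6 ± 5.87 CPM per kb. The WT libraries of Col18a1 lay above those of Col4a1, and those of Lamb2 above those of Col4a2, while the other neighbours in this order overlapped.

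**Figure D3:**
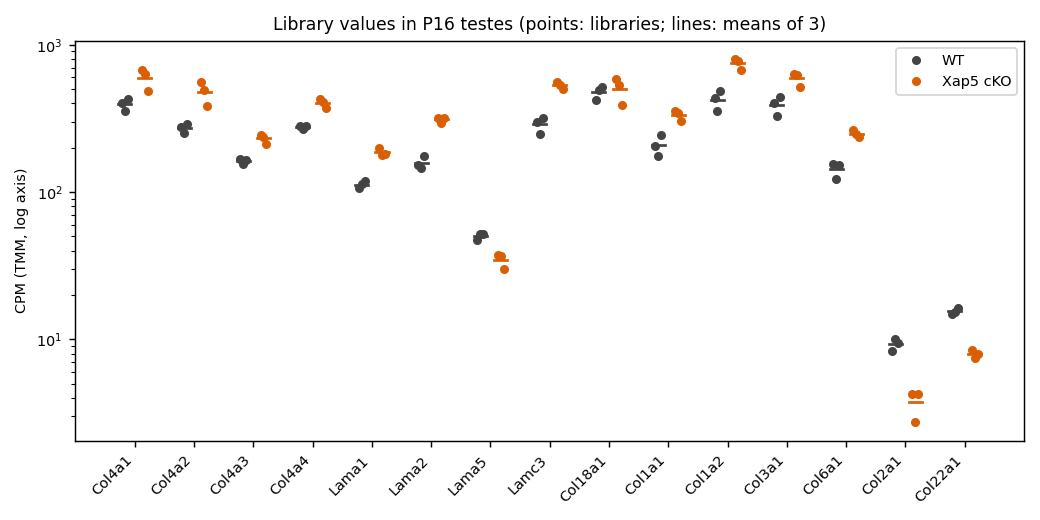
CPM on a log axis of 15 members in each testis library, with points for libraries and lines for the mean of 3. Points of Xap5 cKO lie above those of WT for most genes, overlap for Col18a1, and lie below for Lama5, Col2a1 and Col22a1.

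Among the fibrillar collagens, the fibrils of the interstitium, 7 of 11 rose and Col2a1 fell. Col1a1, which with Col1a2 forms collagen I, was at 205, 176 and 243 CPM in WT against 356, 346 and 302.5 in Xap5 cKO testes (0.69 ± 0.11, adjusted p = 0.000836). Col1a2 was at 437, 352 and 481 CPM in WT against 801, 773 and 669 in Xap5 cKO testes (0.82 ± 0.11, adjusted p = 0.000306). Col3a1, the single chain of collagen III, was at 399, 326 and 439.8 CPM in WT against 635, 627.5 and 513.5 in Xap5 cKO testes (0.61 ± 0.12, adjusted p = 0.00198). In all 3 genes the second WT library was the lowest, and no Xap5 cKO library fell to the WT range. Col3a1 shares exonic sequence with the predicted gene Gm47302 on the same strand.

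The 3 chains of collagen V, which sets the width of collagen I fibrils, rose. Col5a2 was at 19.6, 14.2 and 27 CPM in WT against 35, 34.3 and 31.4 in Xap5 cKO testes (0.73 ± 0.20, adjusted p = 0.014). Col5a3 was at 9.5, 8.42 and 10.1 CPM in WT against 17.7, 16.6 and 15.1 in Xap5 cKO testes (0.82 ± 0.15, adjusted p = 0.00163). Col5a1 was at 70, 63.6 and 81.3 CPM in WT against 104, 104 and 81.5 in Xap5 cKO testes (0.43 ± 0.12, adjusted p = 0.0146), and its call was lost without WT replicate 2, Xap5 cKO replicate 1 or Xap5 cKO replicate 2 (adjusted p from 0.0542 to 0.0593). Col11a1, a minor chain of cartilage fibrils, was at 3.78, 2.91 and 2.86 CPM in WT against 6.87, 4.84 and 5.59 in Xap5 cKO testes (0.86 ± 0.24, adjusted p = 0.0149), a call lost without WT replicate 2 or Xap5 cKO replicate 1 (adjusted p = 0.053 and 0.0595). The third WT library overlapped the Xap5 cKO libraries at Col24a1, which was at 5.12, 6.89 and 11.4 CPM in WT against 12, 14.8 and 11.1 in Xap5 cKO testes (0.69 ± 0.28, adjusted p = 0.0672). Without that library Col24a1 passed (log2 fold change 1.07, adjusted p = 0.0031). Col11a2 (0.34 ± 0.22, adjusted p = 0.226) and Col27a1 (-0.062 ± 0.29, adjusted p = 0.873) did not pass. A numbered entry of Col11a2, left apart here, held more counts, 191 to 254 per library. With its entries summed Col11a2 did not pass either (log2 fold change 0.20, adjusted p = 0.308).

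Col2a1, the collagen of cartilage, was at 8.31, 10 and 9.39 CPM in WT against 4.23, 2.73 and 4.22 in Xap5 cKO testes (-1.31 ± 0.23, adjusted p = 0.00124). Each Xap5 cKO library was below each WT library, and it passed in all 6 fits that left out 1 library. Its level per kilobase was low, 1 ± 0.0935 CPM per kb in WT testes against 39.6 ± 5.87 for Col3a1.

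Collagen VI, which forms beaded filaments near cells, rose in 4 of its 6 genes. Col6a1 was at 154, 123 and 152 CPM in WT against 263, 249 and 235 in Xap5 cKO testes (0.80 ± 0.091, adjusted p = 0.000113). Col6a2 was at 81, 69 and 97.4 CPM in WT against 114, 123 and 111 in Xap5 cKO testes (0.49 ± 0.12, adjusted p = 0.00609). Their partner Col6a3 was at 56.5, 41.9 and 68.2 CPM in WT against 79.9, 78.8 and 65.1 in Xap5 cKO testes and did not pass (0.43 ± 0.16, adjusted p = 0.053). The third WT library was the highest of its group for Col6a2 and Col6a3, and overlapped the Xap5 cKO libraries at Col6a3. Without it Col6a3 passed (log2 fold change 0.60, adjusted p = 0.00611), and it also passed with RLE scaling, DESeq2 and both other filters on low counts. Of the chains that can stand in for Col6a3, Col6a4 (0.54 ± 0.14, adjusted p = 0.0108) and Col6a6 (1.21 ± 0.23, adjusted p = 0.00206) rose, and Col6a5 was below 2 CPM in every library (-0.28 ± 0.39, adjusted p = 0.577). Col6a6 was at 3.69, 3.65 and 4.5 CPM in WT against 10.1, 6.78 and 10.6 in Xap5 cKO testes.

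The fibril-associated collagens, which bind to the surface of fibrils, were divided: 2 of the 8 tested rose, 3 fell and 3 did not pass, with a median log2 fold change of -0.60, where 25.0% of all genes rose and 28.1% fell. With so few genes, these counts lie near the shares of all genes. Col22a1, known from tissue junctions such as those of muscle and tendon, was at 14.9, 15.3 and 16.2 CPM in WT against 8.39, 7.49 and 7.9 in Xap5 cKO testes (-0.97 ± 0.15, adjusted p = 0.000547). Col16a1 was at 45.4, 38 and 30.2 CPM in WT against 29.1, 23.3 and 20.7 in Xap5 cKO testes (-0.63 ± 0.17, adjusted p = 0.0129). Col20a1 was at 12.6, 13.1 and 14.6 CPM in WT against 9.2, 9.04 and 8.78 in Xap5 cKO testes (-0.57 ± 0.15, adjusted p = 0.0104). The groups did not overlap for any of these 3, though the call of Col16a1 was lost without WT replicate 1 (adjusted p = 0.0505). Col9a3, a chain of the collagen IX on cartilage fibrils, rose from 6.79, 7.46 and 7.7 to 14.9, 16.7 and 15.2 CPM (1.09 ± 0.15, adjusted p = 0.000335). Its exons overlap those of Tcfl5, a germ cell transcription factor gene, on the opposite strand. Col14a1, found on fibrils of many connective tissues, was at 9.68, 9.77 and 11.9 CPM in WT against 14.5, 14.7 and 16.9 in Xap5 cKO testes (0.56 ± 0.16, adjusted p = 0.0154), a call lost without WT replicate 1, WT replicate 2 or Xap5 cKO replicate 3 (adjusted p from 0.0512 to 0.0576). Col9a1, Col9a2 and Col12a1 stayed under 4 CPM in every library and did not pass.

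Among the collagens that belong to neither side, 3 rose. Col23a1, a transmembrane collagen, was at 4.35, 5.68 and 8.76 CPM in WT against 12.3, 12.3 and 13 in Xap5 cKO testes (1.0 ± 0.25, adjusted p = 0.00857). Col13a1, another, was at 4.97, 4.91 and 5.42 CPM in WT against 10.2, 8.16 and 11.2 in Xap5 cKO testes (0.95 ± 0.19, adjusted p = 0.00287). Col26a1, first described in testis and ovary, was at 11.5, 9.22 and 8.95 CPM in WT against 23, 24.6 and 13.8 in Xap5 cKO testes (1.05 ± 0.23, adjusted p = 0.00396). The libraries did not overlap for these genes, and Col23a1 lay at the 2-fold mark itself. The other 6, Col7a1, Col8a1, Col8a2, Col17a1, Col25a1 and Col28a1, had log2 fold changes from -0.52 to 0.50 and did not pass.

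Genes whose products work with these chains rose more often than they fell. Their counts are read against the 25.0% of all genes tested that rose and the 28.1% that fell. Of 16 basement membrane partners 7 rose and 3 fell, with a median log2 fold change of 0.30. Sparc, a collagen-binding matricellular protein, was the strongest by adjusted p, with 51303, 51697 and 53183 counts in WT against 88599, 89778 and 85044 in Xap5 cKO testes (0.85 ± 0.049, adjusted p = 9.46e-06). Nid1, the nidogen that links laminin to collagen IV, rose by less (0.44 ± 0.076, adjusted p = 0.00112), and Fbln1, a fibulin, fell (-0.96 ± 0.14, adjusted p = 0.000448). Of 15 interstitial partners 7 rose and 1 fell, with a median of 0.47. Decorin, Dcn, a proteoglycan on collagen fibrils, had 7452, 6717 and 8222 counts in WT against 14010, 14995 and 17526 in Xap5 cKO testes (1.15 ± 0.10, adjusted p = 3.64e-05). Fibronectin, Fn1, was the gene that fell, with 4557, 6253 and 5874 counts in WT against 2690, 2868 and 2743 in Xap5 cKO testes (-0.91 ± 0.088, adjusted p = 5.37e-05). Bgn, a proteoglycan related to Dcn, rose (0.72 ± 0.087, adjusted p = 0.00016).

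Enzymes and chaperones of collagen synthesis, read against the same 25.0% and 28.1%, rose in 16 of 27 cases and fell in 3. Their median log2 fold change was 0.53. Those that rose include the prolyl hydroxylase P4ha1 (0.64 ± 0.061, adjusted p = 4.63e-05), P3h4, a partner of collagen lysyl hydroxylation (0.86 ± 0.070, adjusted p = 2.54e-05), and the galactosyltransferase Colgalt1 (0.45 ± 0.051, adjusted p = 0.000109). Of 13 receptors 9 rose and the other 4 did not pass, with a median of 0.50. The collagen receptor kinase Ddr1 rose nearly to 2-fold (0.97 ± 0.073, adjusted p = 2.03e-05), the laminin receptor subunit Itga6 by less (0.84 ± 0.12, adjusted p = 0.000363), and Itgb1, the beta subunit shared by collagen and laminin integrins, rose least of these (0.50 ± 0.071, adjusted p = 0.000377). Of 11 genes of matrix turnover tested 5 rose and the other 6 did not pass, with a median of 0.49, among them the proteases Mmp2 (0.85 ± 0.12, adjusted p = 0.000431) and Mmp14 (0.53 ± 0.068, adjusted p = 0.000203) and the inhibitor Timp2 (0.69 ± 0.088, adjusted p = 0.00021).

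Markers of several cell types differed in level between the same libraries, and their counts are read against the 25.0% of all genes that rose and the 28.1% that fell. Of 12 Sertoli cell markers 11 rose, with a median log2 fold change of 0.81, and their summed level went from between 4454 and 4881 CPM in WT to between 7685 and 9308 in Xap5 cKO testes. Of 8 peritubular myoid cell markers 5 rose (median 0.38, sums of 564.9 to 723 CPM in WT and 802 to 882 in Xap5 cKO testes), and of 7 stromal fibroblast markers 4 rose (median 0.62, 266 to 338 and 559 to 599 CPM). Endothelial markers passed in 2 of 8 cases, the share of all genes (median 0.45, 94.5 to 114 and 142 to 153 CPM), leukocyte markers in 7 of 8 (median 1.05, 105 to 159 and 222 to 303 CPM) and Leydig cell markers in 4 of 8 with 1 that fell (median 1.04, 275 to 464 and 486 to 935 CPM). All 10 spermatocyte markers fell (median -1.69, 3006 to 4242 and 1130 to 1571 CPM), as did 6 of 8 spermatogonial markers, with 1 that rose (median -0.52, 720 to 821 and 468 to 509.9 CPM). No marker of these lists was at 0 in a whole group of testis libraries. The level of the third WT library for spermatocyte markers, 3006 CPM, was the lowest of the WT group. Sertoli, myoid and stromal cells make these chains, and the part of the marker changes in the collagen and laminin results was not tested. In whole testes, fewer cells of a type and less RNA per cell cannot be told apart.

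**Figure D4:**
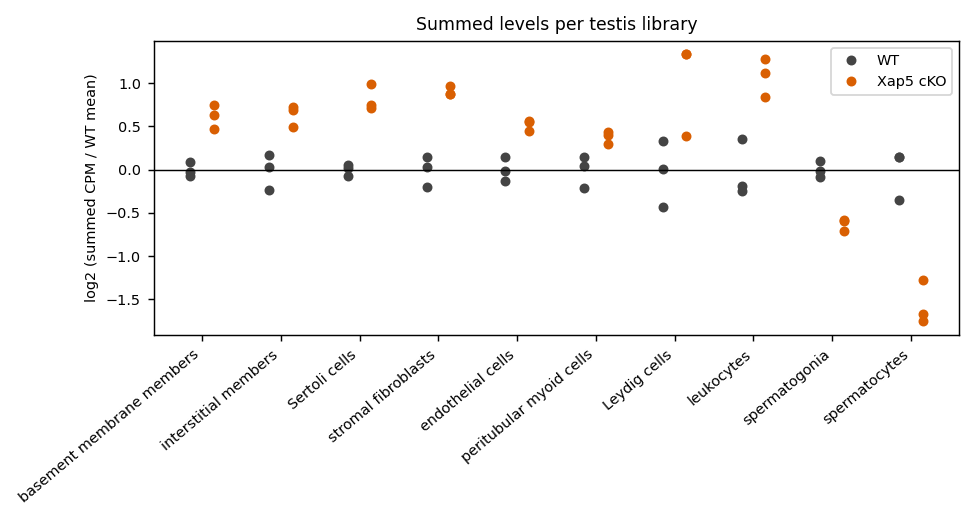
Log2 of the summed CPM of each list over its mean in WT testes, one point per library, for the basement membrane and interstitial members and for 8 lists of cell type markers. Both member lists lie above 0 in the 3 Xap5 cKO libraries, as do the somatic lists, while the spermatogonial and spermatocyte lists lie below 0.

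In P56 sperm the same genes were scarce. The 55 genes summed to 329 ± 42.4 CPM (SD, n = 3) in WT and 342 ± 30.1 in Xap5l KO sperm. Of the 55 genes, 7 were too low to be tested, among them Col13a1, which had 0 counts in all 6 libraries, a value that allows up to 3 counts in each by counting error. Of the 48 members tested 4 rose, each beyond 2-fold, where 9.02% of the 20945 genes tested rose and 7.59% rose beyond 2-fold. By edgeR's quasi-likelihood test 0 members fell, where 3.07% of all genes fell and 1.27% fell beyond 2-fold, and 0 fell in DESeq2, while 3 were lower at an unadjusted p under 0.05. The median log2 fold change was -0.0074 over the members and -0.083 over all genes, -0.12 over the 18 basement membrane members tested and 0.11 over the 23 interstitial members tested. Of the 4 that rose, Lamb3 belongs to the basement membrane side and the other 3 to the interstitial side.

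Lamb3 was at 2.19, 1.62 and 1.23 CPM in WT against 4.34, 4.32 and 3.88 in Xap5l KO sperm (1.32 ± 0.29, adjusted p = 0.0222). Col2a1 was at 5.76, 3.47 and 4.51 CPM in WT against 12, 16.1 and 7.22 in Xap5l KO sperm (1.36 ± 0.32, adjusted p = 0.0286). Col6a4 was at 2.55, 1.69 and 1.1 CPM in WT against 3.17, 4.08 and 6.13 in Xap5l KO sperm (1.34 ± 0.37, adjusted p = 0.0457). Col22a1, at 33.2, 19.3 and 14.1 CPM in WT against 47.4, 43.4 and 59.4 in Xap5l KO sperm (1.17 ± 0.31, adjusted p = 0.0393), was also among the most abundant members. In all 4 genes each Xap5l KO library was above each WT library, but the calls were fragile. All 4 were lost when WT library 2 or 3 or Xap5l KO library 1 or 2 was left out, and Col6a4 also when Xap5l KO library 3 was (adjusted p from 0.0614 to 0.17 over these fits). DESeq2 called 7 members higher, adding Col5a1, Col7a1 and Col19a1.

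Among the most abundant members in sperm by CPM were Col18a1, Col22a1, Col20a1 and Col1a2. Col18a1 was at 41.6, 44.9 and 33.3 CPM in WT against 24.1, 25.7 and 37.4 in Xap5l KO sperm (-0.46 ± 0.23, adjusted p = 0.197). Col20a1 was at 31.4, 20.1 and 25.7 CPM in WT against 43.6, 31.9 and 40.2 in Xap5l KO sperm (0.58 ± 0.23, adjusted p = 0.112). Col1a2 was at 20.9, 30 and 17.1 CPM in WT against 18.7, 11.9 and 15.4 in Xap5l KO sperm (-0.56 ± 0.26, adjusted p = 0.163). Of these only Col22a1 passed. Col20a1 shares exonic sequence with another annotated gene on its own strand, and Col22a1 with Gm16308 on the other strand. Per kilobase, the ratio of basement membrane to interstitial RNA was 0.788 ± 0.11 in WT and 0.594 ± 0.116 in Xap5l KO sperm, with overlapping libraries.

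The 2 mutants differed in the gene targeted, in tissue and in age and share no libraries, so their values stand side by side without a test of the difference. Of 47 members tested in both tables, 27 rose in Xap5 cKO testes, and 19 of these (70.4%) had a negative log2 fold change in Xap5l KO sperm. Of all 3682 genes that rose in testes and were tested in both tables, 76.7% were negative in sperm, and of all 13959 genes tested in both, 61.2% were. The share of negative values among the members thus lay near that among all genes that rose, and the difference was not tested. Col2a1 was -1.31 in testes and 1.36 in sperm, and Col22a1 -0.97 and 1.17, each past the test in both tissues and opposite in sign, though in sperm both calls were lost without any of 4 libraries, as given above. Lama5 was -0.53 in testes, where it passed, and 0.70 in sperm, where it did not (adjusted p = 0.158). Col1a1, Col1a2 and Col3a1, which rose in testes, were at -0.57, -0.56 and -0.78 in sperm without passing.

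Counts of partner genes and markers in sperm are read against the 9.02% of all genes tested that rose and the 3.07% that fell. Of the basement membrane partners 1 of 16 fell, Sparc, with 1175, 1304 and 1232 counts in WT against 676, 697 and 763 in Xap5l KO sperm (-1.05 ± 0.23, adjusted p = 0.0243). Of the interstitial partners 1 of 14 tested rose, of the collagen synthesis genes 2 of 24 fell, of the receptors 1 of 13 rose, and the 11 turnover genes tested did not pass. The summed levels of 5 marker lists did not overlap between the groups, though few of their genes passed. The 8 leukocyte markers, of which 2 fell, summed to 745 to 835 CPM in WT and 166 to 495 in Xap5l KO sperm. Leydig cell markers, of which none of the 5 tested passed, summed to 15.8 to 36.4 and 7.24 to 15.4 CPM. Spermatocyte markers were higher in sum, 420 to 651 CPM in WT and 1039 to 1256 in Xap5l KO sperm, and 2 of the 10 rose. Sums were also higher for peritubular myoid markers, 71 to 98.4 and 128 to 156 CPM, of which 1 of the 7 tested rose. Those of Sertoli cell markers were 708 to 847 and 1116 to 1364 CPM. Yet 1 of the 9 Sertoli markers tested fell, none rose and their median log2 fold change was -0.56. Most of the myoid sum was Actg2, the gene that rose, and most of the Sertoli sum was Clu, which did not pass. Both sums thus follow 1 gene each and do not show a higher level across the list. Ldhc made up most of the spermatocyte sum, and 5 of the 10 spermatocyte markers had a negative log2 fold change. Lyz2 made up most of the leukocyte sum, but there all 8 markers had a negative log2 fold change. The lower leukocyte level was thus not that of Lyz2 alone, though only 2 of the 8 passed. All 5 Leydig cell markers tested also had a negative log2 fold change. The sums of the other 5 lists overlapped. The 6 epididymal epithelium markers tested did not pass, and the list of 10 summed to 6590 to 8982 CPM in WT and 4696 to 6707 in Xap5l KO sperm. The 8 spermatid markers, of which 4 rose, summed to 10160 to 17030 CPM in WT and 16790 to 27620 in Xap5l KO sperm. Their part in the sperm results was not tested.

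**Figure D5:**
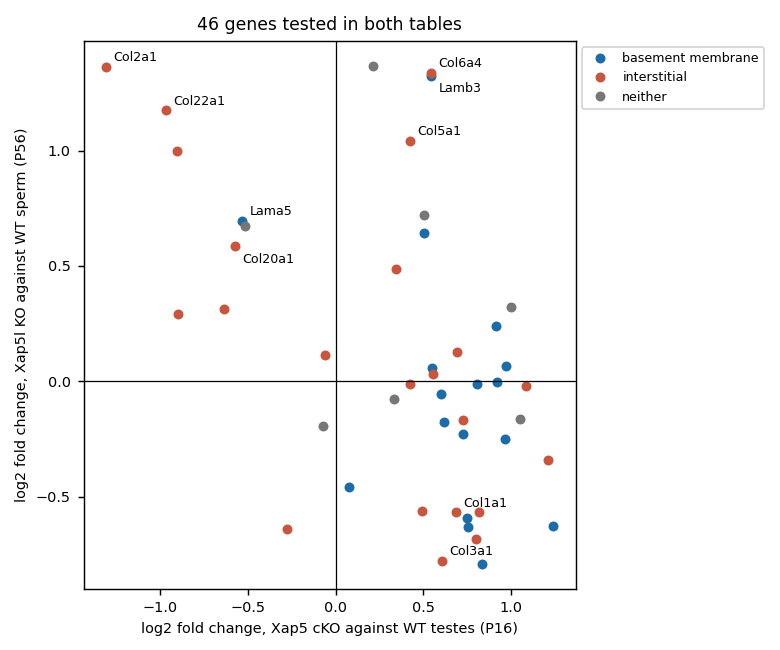
Log2 fold change in Xap5l KO against WT sperm (vertical axis) and in Xap5 cKO against WT testes (horizontal axis) for 46 of the 47 members tested in both tables, coloured by side. Col2a1 and Col22a1 stand at the upper left, at -1.31 and -0.97 in testes and at 1.36 and 1.17 in sperm.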

How the data were processed

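The authors sequenced poly(A) RNA (paired ends, 150 bp), used HISAT2 with GRCm38/mm10, and deposited raw whole-number counts per gene, in a separate table for each tissue; the submitters' processing notes list FastQC 0.11.2, Trimmomatic 0.36, HISAT2 2.1.0 and DESeq2 1.12.4. The counting tool, its treatment of multi-mapping reads and the use of strand are not given in the sources used here. Each tissue was analysed on its own, so levels were not compared between tables. Counts were filtered with filterByExpr, scaled by TMM and fitted with genotype as the only term in the quasi-likelihood test of edgeR, with p-values adjusted by Benjamini-Hochberg over all tested genes. Standard errors (SE) belong to log2 fold changes and were derived from the test statistic. Levels per kilobase are CPM over the merged exon length of the GENCODE annotation of GRCm38, in which all 55 members were found. The smallest p that exact permutation of 3 against 3 libraries allows is 0.1, so only the model across genes was used. The variation between libraries beyond counting error (common coefficient in edgeR) was 0.174 in testes and 0.287 in sperm. Col11a2, Col16a1 and Col4a6 had 5 further, numbered entries in the testis table, kept apart. The test was also run on simulated counts with the same spread for every gene, which cannot show its error rate on these libraries.

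Members, classes and lists were chosen with earlier results of these data known. Genes named were, for testes, every collagen IV, laminin, fibrillar and collagen VI gene and, of other classes, those past 2-fold and the one with most counts; for sperm, those past 2-fold and the 5 most abundant; for partner lists, the 3 with the smallest adjusted p in testes. Col13a1, Col14a1, Col15a1, Col20a1 and Col22a1 in testes, and others given only as values, were named after their values were seen. A gene that this rule would name is not reported here, though the counts include it. Alternatives were RLE scaling, library size alone, DESeq2, no filter, at least 10 counts in every library, a replicate block, summed entries, an adjusted p under 0.01, an unadjusted p under 0.05 and leaving out each library. The tools were edgeR 4.0.16 with limma 3.58.1 and DESeq2 1.42.0 in R 4.3.3, and matplotlib 3.10.9 in Python 3.11.15.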

Additional observations from a re-analysis of the deposited data

How the results depend on the processing

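In testes the counts of members that rose or fell, over all members and on the basement membrane side, stayed within 1.5 times of the values given under other scaling, other filters, DESeq2, the replicate block and summed entries. An adjusted p under 0.01 left 3 members that fell (of 5), 8 interstitial genes that rose (of 13) and 2 that fell (of 4). Leaving out 1 library gave 28 to 35 members that rose and 4 to 5 that fell, 4 to 9 that rose beyond 2-fold (9 without WT replicate 3) and 1 to 2 that fell beyond 2-fold (2 without Xap5 cKO replicate 1). Genes near 0 changed sign: Col18a1 (from -0.044 to 0.23 over these fits, with -0.0015 without WT replicate 1) and Col27a1 (from -0.25 to 0.18, with 0.066 without WT replicate 2); the cause was not tested.

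In sperm the count of 4 members that rose was 7 with DESeq2 and 0 at an adjusted p under 0.01. At an unadjusted p under 0.05 it was 9, with 7 beyond 2-fold and 3 that fell. Leaving out 1 library gave 0 to 5 that rose, as many beyond 2-fold, and 0 to 1 that fell. Same-numbered libraries deviated together at 8.08e-05, -0.0376 and -0.0452 in testes and at 0.17, -0.0191 and -0.135 in sperm, so the numbers were not taken to pair them; with the replicate block 1 member, Lamb3, rose in sperm, also beyond 2-fold (adjusted p = 0.0556 for Col2a1, 0.0582 for Col22a1 and 0.0915 for Col6a4), and no call on a member changed in testes. Levels under about 1 CPM limit what could be detected in sperm.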
